A study of Mus musculus with 6 samples.

Results

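The data concern 10 core genes of non-homologous end joining, Lig4 among them, in haematopoietic stem cells (HSC) of Lig4mut mice and wild-type (WT) littermates. Every probe set whose platform annotation names exactly 1 of these genes was taken, without regard to its values. This gave 17 probe sets for 9 of the 10 genes, out of 45037 probe sets and 18193 named genes. No probe set is named for Dclre1c in the annotation used, so this gene was not analysed here. The animals were 6 to 8 weeks old, and their marrow was sorted for KSL cells (Kit-positive, Sca1-positive, without lineage markers) that were CD150+ and CD48-. The WT mice were Lig4+/+ and the Lig4mut mice came from the same intercross of Lig4mut/+ parents, and no treatment is given for either genotype. The sources used here do not give the nature of the mutation. Each genotype has 3 arrays of biological replicates, and p-values weigh a difference against the spread between these samples. With no word on pooling of animals, that spread may not be the spread between single animals.

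Non-homologous end joining repairs DNA double-strand breaks by ligating the ends directly, without a template, and is the main route in cells that are not replicating, as most HSC are. The Ku70 and Ku80 proteins ring the broken ends and recruit the kinase DNA-PKcs. Artemis and the polymerases lambda and mu trim and fill the ends, and DNA ligase IV with its partners XRCC4 and XLF seals them. 53BP1 binds the chromatin around a break and steers it towards end joining.

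Values are log2 expression values after quantile normalization, where a difference of 1 is a doubling, and differences are Lig4mut minus WT. Values before that step had a floor of exactly 3. By limma, 0 of the 45037 probe sets passed the threshold on p adjusted over the whole table (0%), and 7954 (17.7%) lay at an unadjusted p under 0.05, 68.5% of them higher in Lig4mut. That share was 39.7% in the values as deposited, 49.3% with cyclic loess and 77.7% after median centring. The median difference of all probe sets was 0.08 in the normalization used, -0.04 as deposited, 0.27 after median centring and -0.0040 with cyclic loess. The Lig4mut arrays were less alike than the WT arrays, with correlations across probe sets of 0.848 to 0.864 against 0.940 to 0.950. On the sorted population, 12 of 14 HSC markers were measured, with a mean log2 level of 10.17 to 10.39 in WT and 9.46 to 10.22 in Lig4mut. Of these 12 genes, each by its brightest probe set, 4 were lower in Lig4mut with no overlap between the genotypes and 0 higher. Of all 18193 genes, 1028 were lower and 3833 higher with no overlap. The 4 HSC markers were Meis1 (-1.65 ± 0.42), Hlf (-1.43 ± 0.60), Kit (-0.95 ± 0.25), which the sort used, and Gata2 (-0.79 ± 0.50). None passed over all probe sets (limma, adjusted p = 0.169 or more). By sign alone, 7 of the 12 were lower and 5 higher. The 5 were Ctnnal1 (0.51 ± 0.72), Tek (0.48 ± 0.33), Slamf1 (0.24 ± 0.55), Fgd5 (0.21 ± 0.59) and Esam (0.0022 ± 0.24), all with overlapping arrays. The mean of 11 granulocyte markers was 10.54 in Lig4mut replicate 2 and 6.16 to 8.49 in the other 5 arrays. For 10 B cell markers the mean was 5.92 to 6.04 in WT and 6.25 to 6.92 in Lig4mut, for 7 T cell markers 4.79 to 5.19 and 5.34 to 5.89, and for 12 macrophage and dendritic cell markers 6.01 to 6.52 and 6.78 to 7.37. The mean of 11 proliferation genes was 9.25 to 9.49 in WT and 9.78 to 9.87 in Lig4mut, also without overlap. Gene by gene, 9 of the 11 were higher and 2 lower, with no overlap in 2, and the median difference was 0.28. All genes had a median difference of 0.18, with 11181 of 18193 at higher values. The means of the erythroid, megakaryocyte and endothelial markers overlapped between the genotypes. All these means were taken after quantile normalization only, so whether the separations hold in the values as deposited was not tested. The part of these cell types and of proliferation in the results was not tested, and in bulk samples fewer cells of a type and less RNA per cell cannot be told apart.

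Lig4 encodes DNA ligase IV, and its RefSeq entry has a pair of annotated transcription starts on the minus strand of chromosome 8. Both promoter windows, 250 bases before to 50 after the start, are shown because Lig4 is the mutated gene and the member with the largest difference, and its single probe set does not tell which start a transcript came from. Capitals mark matches on either strand. One motif marked is TGCGCA, a half-site of nuclear respiratory factor 1 (NRF1), which reads the same on both strands. The other is GGGCGG, the GC box. The sequences are from RefSeq, build GRCm38.p6, at chr8:9977631-9977930 for the upstream start and chr8:9976262-9976561 for the downstream start.

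Lig4 upstream start: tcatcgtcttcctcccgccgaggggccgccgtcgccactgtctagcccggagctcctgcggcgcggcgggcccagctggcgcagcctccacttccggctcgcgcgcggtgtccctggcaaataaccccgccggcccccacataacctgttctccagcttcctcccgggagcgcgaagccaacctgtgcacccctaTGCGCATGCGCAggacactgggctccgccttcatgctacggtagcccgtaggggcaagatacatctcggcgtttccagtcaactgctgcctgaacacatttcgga

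Lig4 downstream start: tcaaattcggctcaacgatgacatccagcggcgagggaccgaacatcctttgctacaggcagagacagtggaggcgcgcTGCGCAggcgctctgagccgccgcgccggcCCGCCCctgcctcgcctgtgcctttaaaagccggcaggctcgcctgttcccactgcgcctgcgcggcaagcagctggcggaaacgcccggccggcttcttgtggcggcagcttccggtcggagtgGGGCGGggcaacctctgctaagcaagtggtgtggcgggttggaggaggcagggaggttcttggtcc

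The upstream window holds 2 NRF1 half-sites that abut, centred 52 and 46 bases before the start, and no GC box. The downstream window holds 1 half-site, centred 168 bases before the start, and 2 GC boxes, centred 138 and 13 bases before it. Only the exact letters were searched. Near matches to the half-site, such as tgcgcc followed directly by tgcgcg in the downstream window, are neither marked nor counted. The E2F form TTCGCGC stands once in the upstream window and the form TTGGCGC in neither. The letters CCAAT were found in neither window. The same holds for TATAAA. These short NRF1 and E2F forms replaced longer ones after the matches of the longer ones had been seen, so the matches are a description only.

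Over all 32851 promoter windows of this length in the RefSeq table, 7.76% hold the NRF1 half-site, 35.7% a GC box, 37.4% the CCAAT letters and 13.6% the TATA letters. The first E2F form stands in 1.59% of them and the other in 2.45%. Of the 10 end-joining genes, 8 have windows in that table, 9 windows in all. The half-site stands in 5 of the 9 windows, those of Lig4, Nhej1, Xrcc5 and Dclre1c, and a GC box in 7. The probes were not placed on the gene, so whether they lie in an altered part of it is not known here.

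Lig4 itself, the ligase, was at 7.53, 6.66 and 7.63 in WT replicates 1, 2 and 3 and at 4.97, 3.16 and 3.10 in those of Lig4mut. All 3 Lig4mut arrays lay below all 3 WT arrays, and replicates 2 and 3 were close to the floor. Lig4mut replicate 1 lay 1.81 above the next Lig4mut array and 1.69 below the lowest WT array. The means were 7.27 ± 0.53 (SD, n = 3) and 3.74 ± 1.06. The difference was -3.53 ± 0.62 (SE), with a 95% interval of -5.13 to -1.93, or -3.61 relative to the median of all probe sets. With 2 of the 3 Lig4mut arrays next to the floor, the size of this difference is limited by the floor, and no fold is given. Adjusted over the whole array, this missed the threshold (limma, adjusted p = 0.12).

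With 1 array left out the Lig4 difference was -4.14 to -3.22, and its sign could not turn, since the genotypes do not overlap. It was -4.14 ± 0.36 without Lig4mut replicate 1, the mutant array with the highest Lig4 value (limma, adjusted p = 0.12). Leaving out Lig4mut replicate 2, the array with high granulocyte markers, gave -3.24 ± 0.71 (limma, adjusted p = 0.177). Over all alternatives the adjusted p ranged from 0.11 to 0.306. A filter on dim probe sets, at the 40th percentile of mean level, was passed by 15 of the 17. Lig4 and Nhej1 1425651_at did not pass and have no value under that filter.

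**Figure D1:**
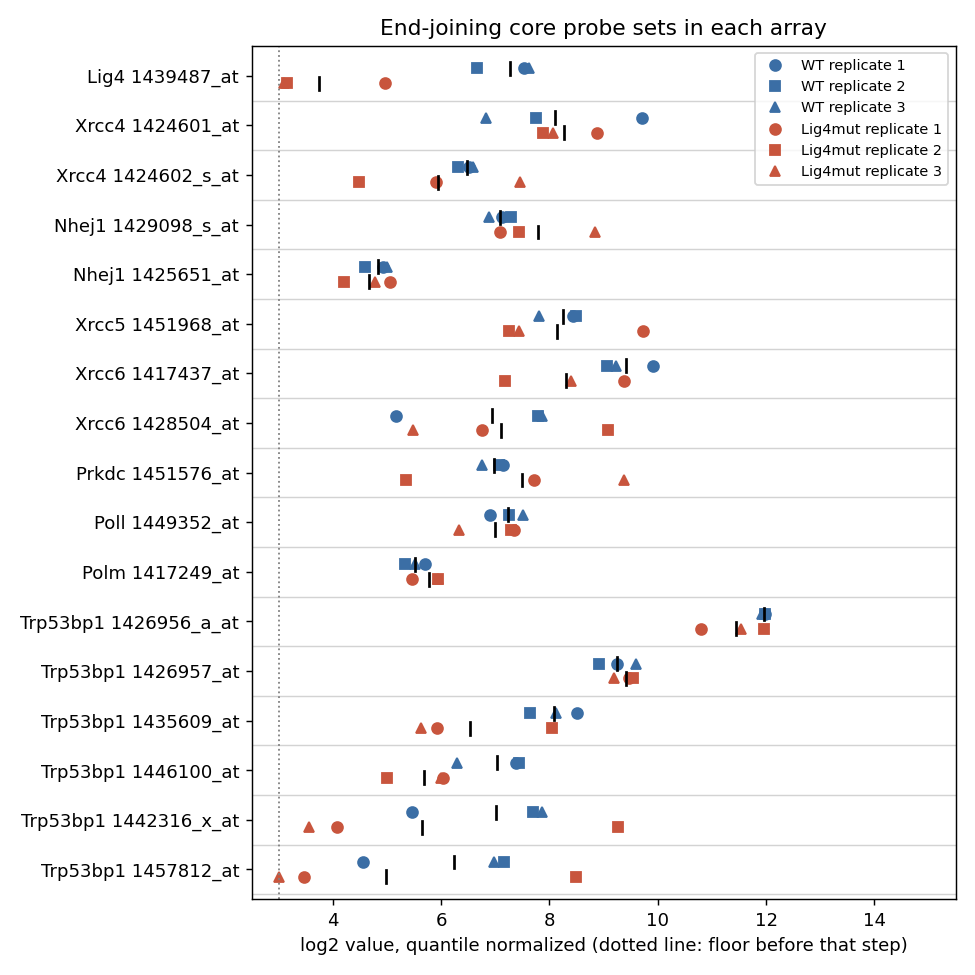
Log2 values (horizontal axis) of the 17 end-joining core probe sets in each of the 6 arrays, with WT in blue, Lig4mut in red, the replicate number as the marker shape and the mean of 3 arrays as a black bar. The Lig4 values of Lig4mut, 3.10 to 4.97, lie apart from those of WT, 6.66 to 7.63, while for 15 probe sets the genotypes overlap.

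Xrcc4 encodes the scaffold that holds and stabilizes DNA ligase IV. Its probe set 1424601_at was at 9.71, 7.75 and 6.83 in WT and 8.89, 7.88 and 8.06 in Lig4mut, with the Lig4mut values inside the WT range. The difference was 0.18 ± 0.82 (SE), with an interval of -1.92 to 2.28 (limma, adjusted p = 0.953). The other probe set, 1424602_s_at, was at 6.52, 6.31 and 6.60 in WT and 5.91, 4.48 and 7.46 in Lig4mut, where the 3 WT arrays lay close together and the Lig4mut arrays fell on both sides of them. Its difference was -0.53 ± 0.78, with an interval of -2.54 to 1.49. The correlation of both over the 6 arrays was 0.014, so the pair of probe sets did not track each other.

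Nhej1 encodes XLF, which bridges XRCC4 and ligase complexes across the ends. Probe set 1429098_s_at was at 7.12, 7.29 and 6.88 in WT and 7.09, 7.43 and 8.84 in Lig4mut, with Lig4mut replicate 3 above all other arrays. The difference of 0.69 ± 0.50, the largest positive one among the 17, became 0.17 without that array. Probe set 1425651_at was at 4.92, 4.59 and 4.99 in WT and 5.05, 4.20 and 4.78 in Lig4mut, with the genotypes overlapping (-0.16 ± 0.26, interval -0.84 to 0.52).

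Xrcc5 encodes Ku80 and Xrcc6 encodes Ku70, which are stable only as a pair. Xrcc5 was at 8.44, 8.49 and 7.80 in WT and 9.73, 7.25 and 7.44 in Lig4mut, so that Lig4mut held both the highest value and the lowest ones. The difference was -0.10 ± 0.75, with an interval of -2.03 to 1.82, and 0.059 after median centring. Xrcc6 by probe set 1417437_at was at 9.92, 9.07 and 9.23 in WT and 9.37, 7.17 and 8.39 in Lig4mut. Lig4mut replicates 2 and 3 lay below all WT arrays and replicate 1 within them, and the difference was -1.09 ± 0.62, with an interval of -2.70 to 0.51 (limma, adjusted p = 0.436). It was -0.52 without Lig4mut replicate 2. By probe set 1428504_at Xrcc6 was at 5.17, 7.80 and 7.87 in WT and 6.75, 9.08 and 5.48 in Lig4mut. This probe set was highest in the array in which the other was lowest, and the correlation of both over the 6 arrays was -0.602. Its difference was 0.16 ± 1.24, with an interval of -3.04 to 3.36, and -0.030 in the values as deposited.

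Prkdc encodes DNA-PKcs, the kinase that Ku brings to the ends. It was at 7.13, 7.07 and 6.75 in WT and 7.72, 5.35 and 9.38 in Lig4mut, so the WT arrays lay within 0.38 of each other and the Lig4mut arrays spanned 4.03. The difference was 0.50 ± 1.06, with an interval of -2.22 to 3.23 (limma, adjusted p = 0.858), and it was -0.45 without Lig4mut replicate 3. The lowest Prkdc value was in Lig4mut replicate 2, and over the 6 arrays Prkdc correlated at r = -0.801 with the mean of the granulocyte markers. That correlation is a description over 6 arrays, and the part of the granulocyte markers in the difference was not tested. Over the 17 probe sets such correlations ran from -0.801 for Prkdc to 0.749 for Trp53bp1 1442316_x_at. Nhej1 1425651_at was at -0.779 and Lig4 at -0.153, and the share of all probe sets at such values was not computed.

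Poll and Polm encode the polymerases lambda and mu, which fill gaps at the ends. Poll was at 6.91, 7.25 and 7.52 in WT and 7.34, 7.29 and 6.33 in Lig4mut, with Lig4mut replicate 3 lowest. The difference was -0.24 ± 0.35, with an interval of -1.13 to 0.65, and 0.088 without that array. Polm was at 5.70, 5.33 and 5.51 in WT and 5.46, 5.95 and 5.94 in Lig4mut, and its arrays overlapped through Lig4mut replicate 1. At 0.27 ± 0.19, with an interval of -0.23 to 0.76, Polm had the narrowest interval of the 17, and its value was -0.048 in the values as deposited. Both intervals exclude a difference as low as the -3.53 of Lig4. So do all others of the 17 except those of Lig4 itself and of Trp53bp1 1442316_x_at and 1457812_at.

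**Figure D2:**
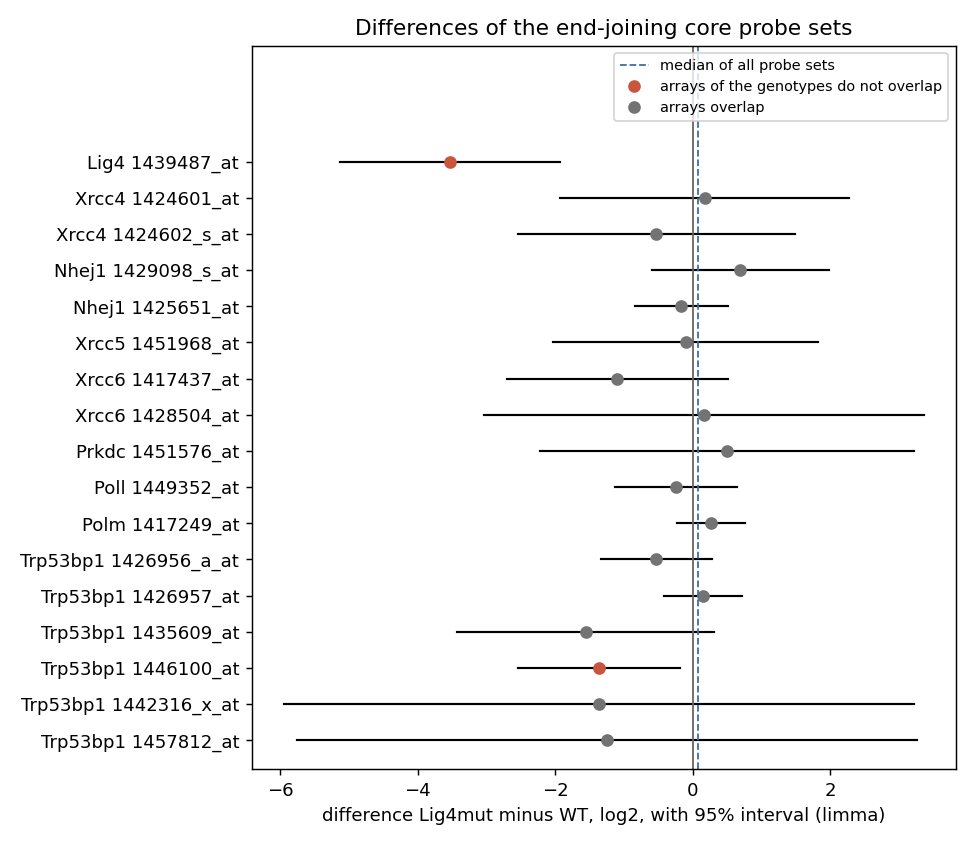
Difference Lig4mut minus WT (log2, horizontal axis) of the 17 probe sets with the 95% interval of limma, red where the arrays of the genotypes do not overlap and grey where they do, with the median of all probe sets as a dashed line. The intervals of Lig4 (-5.13 to -1.93) and of Trp53bp1 1446100_at (-2.54 to -0.18) do not hold 0, and the other 15 do.

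Trp53bp1 encodes 53BP1 and has 6 probe sets, which did not give 1 picture. The brightest, 1426956_a_at, was at 11.99, 11.97 and 11.93 in WT and 10.81, 11.96 and 11.54 in Lig4mut. WT arrays differed by 0.055 at most, and Lig4mut replicates 1 and 3 lay below them while replicate 2 lay among them. The difference was -0.53 ± 0.31 (limma, adjusted p = 0.456), and -0.21 without Lig4mut replicate 1. Probe set 1426957_at was at 9.24, 8.91 and 9.60 in WT and 9.47, 9.55 and 9.20 in Lig4mut, with full overlap (0.15 ± 0.22, interval -0.41 to 0.72).

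Probe set 1446100_at was at 7.38, 7.43 and 6.30 in WT and 6.04, 5.00 and 5.99 in Lig4mut. Together with Lig4 it made up the 2 of 17 probe sets with no overlap between genotypes, both lower in Lig4mut, where 7.35% of all probe sets show this on the lower side and 16.4% on the higher side. Its difference of -1.36 ± 0.46, with an interval of -2.54 to -0.18, did not pass over all probe sets (limma, adjusted p = 0.236). The same 2 of 17, or 11.8%, lay lower at an unadjusted p under 0.05, beside 5.56% of all probe sets. The annotation gives no accession for 1446100_at beyond the gene.

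In the remaining 3 Trp53bp1 probe sets, Lig4mut replicate 2 lay above the other Lig4mut arrays. The same held for 1426956_a_at and 1426957_at, while in 1446100_at that array was the lowest. Probe set 1435609_at was at 8.50, 7.64 and 8.11 in WT and 5.92, 8.04 and 5.63 in Lig4mut, with replicates 1 and 3 of Lig4mut low and replicate 2 among the WT arrays (-1.55 ± 0.72). Probe set 1442316_x_at was at 5.45, 7.69 and 7.87 in WT and 4.08, 9.26 and 3.57 in Lig4mut. The suffix x marks a probe set whose probes may bind other transcripts. Probe set 1457812_at, designed from the same sequence entry, was at 4.56, 7.17 and 6.97 in WT and 3.47, 8.49 and 3.00 in Lig4mut, the last at the floor. These last 2 correlated at r = 0.998 over the 6 arrays, and their intervals, -5.95 to 3.22 and -5.76 to 3.27, were the widest of the 17. Their differences were -1.37 ± 1.78 and -1.24 ± 1.75, and single arrays moved them in both directions. Without Lig4mut replicate 2 they were -3.19 and -3.02, without Lig4mut replicate 1 -0.59 and -0.50, and without Lig4mut replicate 3 -0.35 and -0.27. Without WT replicate 1 they were -2.13 and -2.06, and 1457812_at was at -0.75 without WT replicate 2. The mean of the granulocyte markers, highest in Lig4mut replicate 2, correlated with the pair at 0.749 and 0.730 over the 6 arrays. The granulocyte markers' part in these values was not tested. Of all 45037 probe sets, 370 (0.822%) had r of at least 0.9 to 1442316_x_at.

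**Figure D3:**
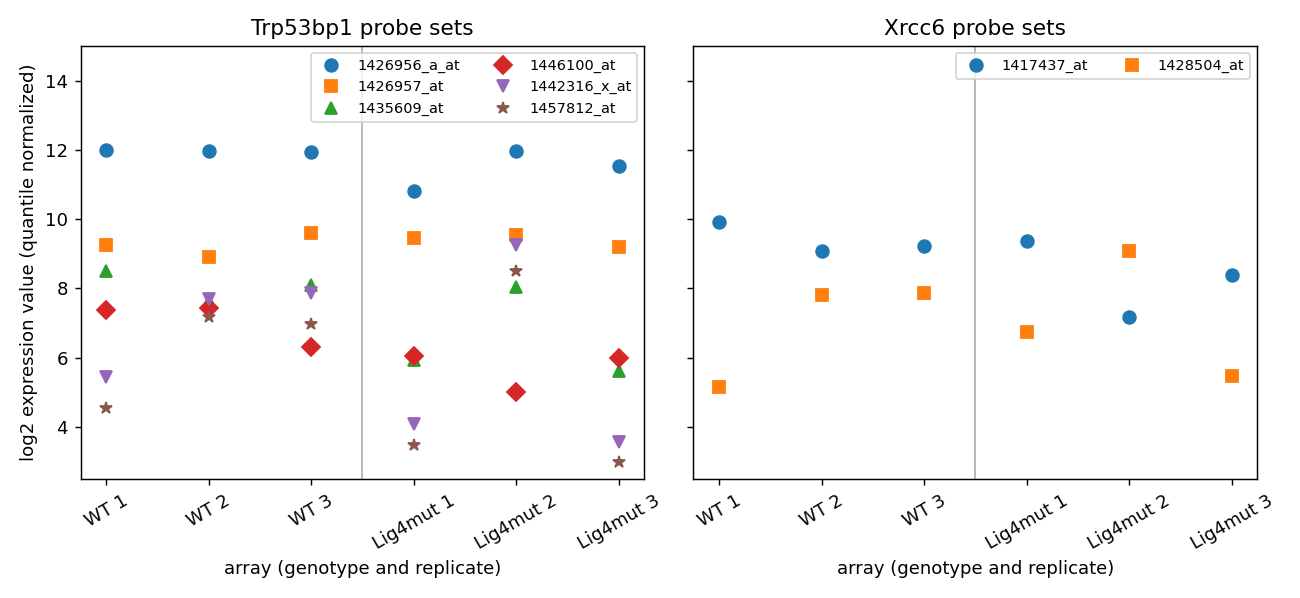
Log2 values (vertical axis) of the 6 probe sets of Trp53bp1 (left) and the 2 of Xrcc6 (right) in each array, with a marker and colour per probe set and a vertical line that parts the genotypes. In Lig4mut replicate 2 the probe sets 1442316_x_at and 1457812_at are at 9.26 and 8.49, against 3.00 to 4.08 in the other Lig4mut arrays, and Xrcc6 1417437_at is lowest there of its 6 arrays and 1428504_at highest of its own.

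Probe sets of the same gene thus often disagreed. Among the 18 pairs of probe sets that share a gene, 12 had a correlation above 0 over the 6 arrays, in a range of -0.702 to 0.998. The pairs of Xrcc4, Nhej1 and Xrcc6 were at 0.014, -0.204 and -0.602, and all others were of Trp53bp1. The same count over all genes was not made. Averaged per gene over its probe sets, Trp53bp1 was at -0.98, Xrcc6 at -0.47, Nhej1 at 0.27 and Xrcc4 at -0.17 (limma, adjusted p = 0.444 or more for each). No probe set's level is set here against that of another, since probes differ in brightness.

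The Lig4mut arrays spread more widely than the WT arrays in most of these probe sets. The SD was larger between Lig4mut arrays for 14 of 17 (82.4%), beside 66.8% of all probe sets. The 17 are not separate observations, since 6 are of Trp53bp1, among them the pair with r = 0.998. The shares over all probe sets include those at the floor and were not matched by level. The exceptions were Xrcc4 1424601_at, with an SD of 1.47 in WT and 0.535 in Lig4mut, and Trp53bp1 1426957_at and 1446100_at. The median SD of the 17 was 0.383 in WT and 1.06 in Lig4mut, where all probe sets had 0.304 and 0.457. For 10 of 17 the range of Lig4mut was over 2 times that of WT, which held for 39.6% of all probe sets. In 10 of 17, or 58.8%, Lig4mut replicate 2 was the highest or lowest of the 6 arrays, beside 43.8% of all probe sets.

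**Figure D4:**
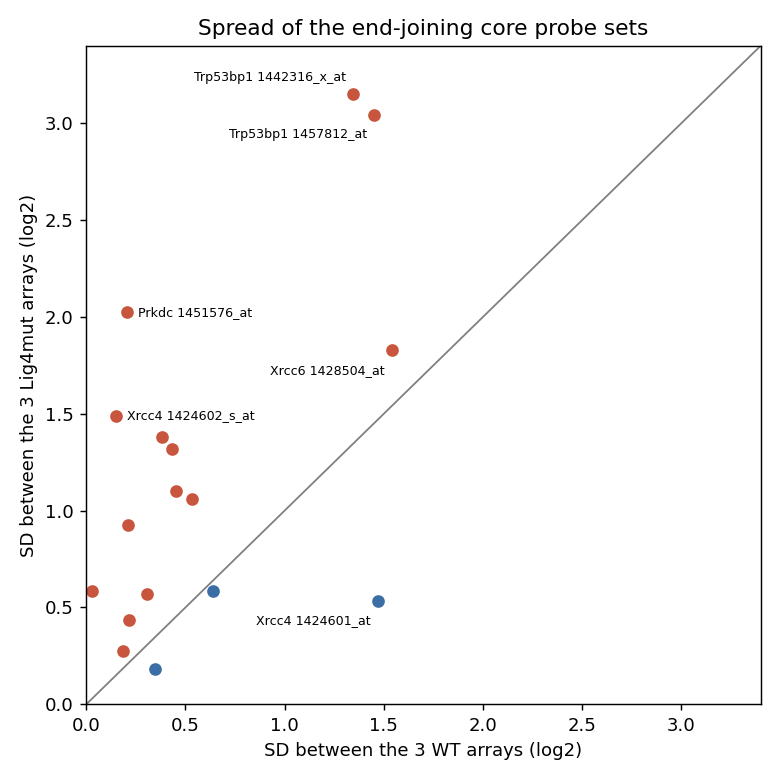
SD between the 3 Lig4mut arrays (vertical axis, log2) against SD between the 3 WT arrays (horizontal axis, log2) for the 17 probe sets, with equal spread as the line. Of the points, 14 lie above the line (red) and 3 below it (blue), and Trp53bp1 1442316_x_at is the highest, at 3.15 in Lig4mut.

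The genes with levels most like those of Lig4 over the 6 arrays, out of all probe sets that name 1 gene, were Zfp386, Ado, Trub1, Tpm3 and Rrm2b. The correlations were 0.997, 0.996, 0.995, 0.995 and 0.995, across arrays that share genotype. Of all 45037 probe sets, named or not, 704 (1.56%) had r of at least 0.9. Zfp386, a zinc finger gene, was at 8.999, 8.22 and 8.94 in WT and 6.98, 5.80 and 5.43 in Lig4mut. Rrm2b, which encodes a p53-inducible subunit of ribonucleotide reductase, was at 6.04, 5.42 and 6.54 in WT and 4.26, 3.00 and 3.00 in Lig4mut. In both, Lig4mut replicate 1 was the highest of the mutant arrays, as for Lig4, which follows from their choice by correlation with Lig4. Ado, a thiol dioxygenase gene, differed by -2.27 ± 0.48 and Trub1, a pseudouridine synthase gene, by -2.36 ± 0.48, while Tpm3, a tropomyosin gene, differed by -0.20 ± 0.093, so likeness of pattern did not mean likeness of size. Among the other end-joining probe sets the highest correlation with Lig4 was that of Xrcc6 1417437_at, 0.800, followed by Trp53bp1 1446100_at, 0.774.

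On the chromosome, Lig4 lies between Fam155a and Abhd13 in RefSeq's gene order of GRCm38.p6. Abhd13, the next gene on the side of the Lig4 start, has 5 probe sets, all with overlapping genotypes, at differences of -0.95 to 0.69. Its brightest probe set, 1428274_s_at, was at 7.88, 7.59 and 8.25 in WT and 8.34, 7.63 and 8.34 in Lig4mut (0.19 ± 0.28). Fam155a was at 4.90, 4.40 and 4.79 in WT and 5.18, 4.61 and 5.53 in Lig4mut (0.42 ± 0.29). The arrays of the genotypes overlapped in every probe set of these adjacent genes. Among 23 probe sets of the 12 protein-coding genes nearest in order, 6 on each side, 4 had no overlap between the genotypes, against 23.8% of all probe sets. These were 1 of 4 of Efnb2 (-2.78 ± 0.60), 1 of 2 of Arglu1 (-0.84 ± 0.27), 1 of 3 of Tnfsf13b (1.15 ± 0.28) and 1 of 2 of Col4a1 (1.34 ± 0.47), and none passed over all probe sets (limma, adjusted p = 0.14 or more). In the Efnb2 probe set 1 Lig4mut array was at the floor.

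**Figure D5:**
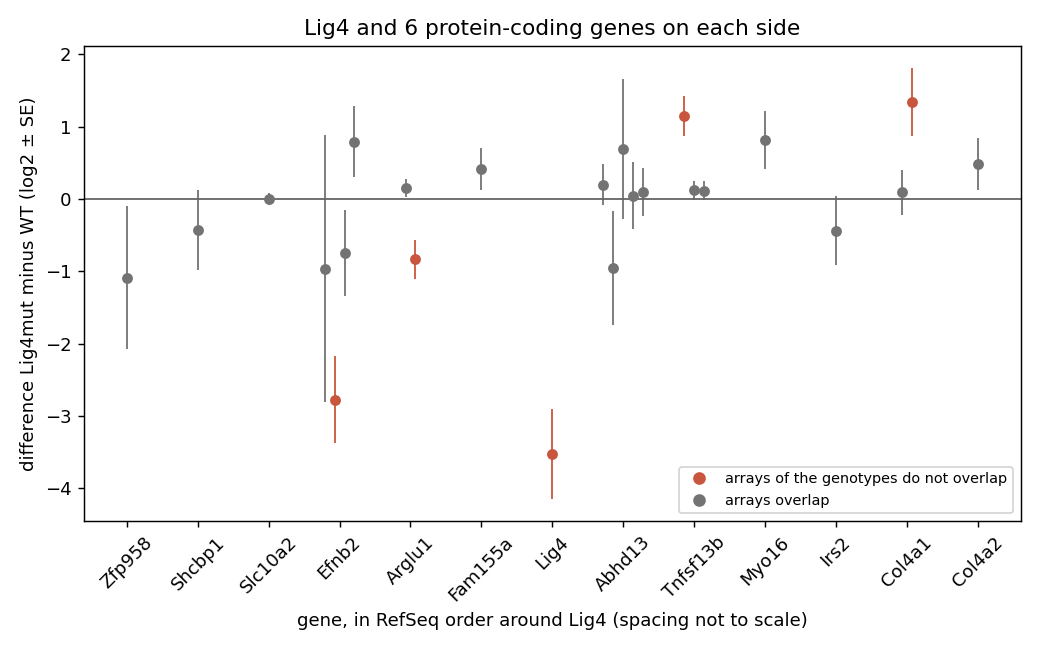
Difference Lig4mut minus WT (log2 ± SE, vertical axis) of each probe set of Lig4 and of 6 protein-coding genes on each side, in RefSeq order and not to scale, red where the arrays of the genotypes do not overlap. Lig4 is at -3.53, and the adjacent genes Fam155a and Abhd13 lie between -0.95 and 0.69.

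Of 73 other genes of double-strand break repair and V(D)J recombination, 66 were measured, and 0 passed over all probe sets by limma. At an unadjusted p under 0.05, 2 were higher and 2 lower in Lig4mut, beside 16.1% and 4.04% of all genes. Their arrays did not overlap in 6, beside 26.7% of all genes. Each gene is given here by its brightest probe set.

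Of 16 accessory genes of end joining, 13 were measured, with 8 at higher and 5 at lower values and a median difference of 0.061. The median of all genes was 0.18, and 11181 of 18193 were at higher values. Without WT replicate 3 the accessory median was -0.16, and with any other single array left out it was 0.081 to 0.22. Setmar, which encodes a histone methyltransferase, was at 5.41, 5.53 and 6.37 in WT and 4.56, 3.00 and 4.16 in Lig4mut (-1.86 ± 0.51, 1 array at the floor). Tdp1, which clears adducts from DNA ends, differed by 1.01 ± 0.43 and Aptx, which resolves failed ligations, by 0.83 ± 0.52, both with overlapping arrays. Among the break signalling genes, all 18 listed were measured, 9 higher and 9 lower, with a median of -0.020. It was above 0 without WT replicate 3 (0.047), Lig4mut replicate 2 (0.081) or Lig4mut replicate 3 (0.17), and with cyclic loess (0.072), and it was -0.11 without Lig4mut replicate 1 and -0.061 without WT replicate 2. Mre11a, a nuclease of the break sensor, differed by -0.90 ± 0.39, Babam1 by 0.58 ± 0.26 and Mdc1, the reader of phosphorylated H2AX, by 1.05 ± 0.48.

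The alternative route of end joining uses other ligases, and of 11 listed genes 10 were measured, 3 higher and 7 lower, with a median of -0.25. It was -0.088 without WT replicate 1, -0.16 without Lig4mut replicate 2, -0.12 without Lig4mut replicate 3 and -0.039 after median centring. Lig3, the ligase of that route, was at 9.54, 9.09 and 9.29 in WT and 9.004, 8.51 and 8.10 in Lig4mut. Its arrays did not overlap, and the difference was -0.77 ± 0.27 (limma, adjusted p = 0.253). Hmces differed by -1.10 ± 0.53 and Xrcc1, the scaffold of DNA ligase III, by 0.48 ± 0.42. In homologous recombination, which copies an intact template, 22 of 24 listed genes were measured, 10 higher and 12 lower, with a median of -0.15. This median turned sign without WT replicate 3 (0.033), without Lig4mut replicate 2 (0.035), after median centring (0.063) and with dim probe sets left out (0.068). It was -0.056 without WT replicate 2, -0.25 as deposited and -0.094 with probe sets averaged per gene. Blm, a helicase, differed by 1.13 ± 0.40, Rpa3, a subunit of the single-strand binding protein, by 0.27 ± 0.10 and Sfr1 by -0.29 ± 0.12, each without overlap between genotypes.

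V(D)J recombination in lymphocyte precursors depends on end joining, and 4 of 5 listed genes were measured. All 4 were at higher values, as were 11181 of all 18193 genes, and the median difference of the 4 was 0.25. The median was 0.032 without Lig4mut replicate 1, 0.087 without WT replicate 2, 0.15 without WT replicate 3, 0.092 as deposited and 0.41 after median centring. Dntt, the template-free polymerase of V(D)J junctions, was at 6.12, 5.86 and 6.19 in WT and 6.16, 6.24 and 6.88 in Lig4mut (0.37 ± 0.24). Rag2 differed by 0.11 ± 0.15 and Rag1 by 0.46 ± 0.75. The arrays of the genotypes overlapped in all 4.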

How the data were processed

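Gene expression was measured on 1-colour mouse arrays, 3 of WT and 3 of Lig4mut HSC, grouped by the sample titles. The authors deposited log2 values for each probe set, for which the submitters' processing notes name RMA without a version. Every array has a minimum of exactly 3, a floor whose source is not stated. Arrays have no read depth, and precision is limited by their number.

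Array distributions were unequal, and quantile normalization over all 6 was applied first. All 45037 probe sets that are not controls were fitted with limma 3.58.1 in R 4.3.3 (lmFit with eBayes; two-sided; p adjusted by Benjamini-Hochberg over the whole table at a threshold of 0.05). The fit was tested on simulated data with the same spread in both genotypes. That test does not cover the larger spread of the Lig4mut arrays. Intervals are limma's 95% intervals. Gene names came from the platform annotation of GEO, with symbols updated by gene identifier to RefSeq's table for GRCm38.p6, and 34945 name 1 gene. In lists a gene is represented by its probe set with the highest mean. The members, lists and tests were chosen with earlier results of these data known. The genes named are all members, the 3 genes of each other repair list with the smallest p, and the 5 genes whose levels correlate best with Lig4. HSC markers were named after their values had been seen, as those without overlap between the genotypes and those at higher values in Lig4mut. The genes beside Lig4 and the promoter motifs were added later, the former by position. Alternatives changed the normalization (as deposited, median centring, cyclic loess), the arrays (each left out, array weights), the model (replicate number as a block, variance trend with robust moderation) and the features (dim ones dropped, brightest or averaged probe sets of a gene). With 3 arrays against 3 an exact permutation test cannot pass the threshold and was not run.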

Additional observations from a re-analysis of the deposited data

How the results depend on the processing

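Of 237 alternative values for the 17 end-joining probe sets, 0 passed the adjusted threshold by limma. Over the alternatives that gave a value, 9 probe sets changed sign in at least 1 and 8, Lig4 among them, in none. For Lig4 and Trp53bp1 1446100_at, whose genotypes do not overlap, leaving out an array could not turn the sign. Without 1 array the range was -0.46 to 1.00 for Xrcc4 1424601_at, -1.29 to 0.20 for Xrcc4 1424602_s_at, -0.35 to 0.078 for Nhej1 1425651_at, -0.89 to 0.34 for Xrcc5, -0.82 to 0.97 for Xrcc6 1428504_at, -0.45 to 1.54 for Prkdc, -0.41 to 0.088 for Poll and -0.017 to 0.33 for Trp53bp1 1426957_at. Xrcc4 was at -0.17 as the mean of probe sets and Xrcc5 at 0.059 after median centring. Xrcc6 1428504_at was at -0.030 as deposited and -0.058 with array weights, and Polm at -0.048 as deposited. The causes were not tested.

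Probe sets past the adjusted threshold numbered 0 in the normalization used, 21 as deposited, 1 with cyclic loess and 1 with a variance trend. There were 2 with the brightest probe set per gene, where 18193 genes were tested. At an unadjusted p under 0.05 there were 7954, and 3636 with dim probe sets left out, 3590 with the brightest probe set per gene and 3798 with the mean of probe sets, each of which tests fewer features. The median of the accessory genes was 0.36 after median centring and -0.44 with the mean of probe sets, and that of the break signalling genes 0.29 and -0.36.

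Same-numbered arrays of the genotypes did not deviate together (r = 0.049, 0.012 and -0.023 across probe sets), and 2 of 6 arrays correlated best with their own number. With the replicate number as a block, Lig4 was at -3.53 ± 0.48 (limma, adjusted p = 0.301), and 6788 probe sets lay at an unadjusted p under 0.05.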
